A study of Mus musculus with 4 samples.

Results

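The genes described here are 59 nucleolar ribosome assembly factors, proteins that process ribosomal RNA (rRNA) and build the ribosomal subunits. They were chosen by name, as the rows of the deposited table whose gene symbol stands in a list of such factors. All 59 were found among the 20555 genes of that table. The list was drawn up with earlier results of these data known, so the choice was not blind to them. RNA came from bulk mammary tumours of mice and was sequenced as poly(A)-selected libraries. Control-PyMT (n = 2 libraries) carries the genotype label PyMT, for polyoma middle T, an oncogene that gives rise to tumours of the mammary gland. MYC-PyMT (n = 2) carries the label S100a8-creRosa26-LSL-MYCPyMT, which joins PyMT to a Cre recombinase and to a MYC transgene in the Rosa26 locus, silent until Cre removes a floxed stop (LSL). Both groups thus share PyMT, and Cre is driven by S100a8, a gene that neutrophils express strongly. The sources used here give no age, sex or strain, and whether a group's 2 libraries came from separate mice is not said. The p-values therefore rest on library-to-library spread, which could be technical. By these labels MYC-PyMT differs from Control-PyMT in both the Cre and the MYC allele, so their effects cannot be told apart in this comparison.

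Ribosomes are assembled in the nucleolus, where a long rRNA precursor is transcribed, chemically modified and cleaved. Small nucleolar ribonucleoproteins (snoRNPs) guide the modification: box C/D particles methylate rRNA, and box H/ACA particles turn uridine into pseudouridine. The small subunit processome folds and cuts the precursor of the small subunit, and another set of factors ripens the large subunit. Genes of this machinery are among the best known targets of the MYC transcription factor, and dividing cells express them at high levels.

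Values are scaled counts, which are read counts divided by the authors' size factor for each library. The libraries held 31783846 to 34190913 reads. Counts of the 2 libraries of a group differed by more than counting noise. Each of the 59 genes had at least 354 reads in every library, so all of them passed the filter on low values. All 10 epithelial markers were detected in every library, and their summed level was 147256 and 143668 scaled counts in Control-PyMT, against 120092 and 126937 for MYC-PyMT, so the labelled tissue could be recognised by them.

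All 59 assembly factor genes were higher in MYC-PyMT. The log2 change ran from 0.55 to 2.52 with a median of 1.62, against a median of -0.02 over all 16725 genes tested. All 59 passed the test (limma, Benjamini-Hochberg adjusted p under 0.05 over all genes), in a comparison in which 23.3% of all tested genes were called higher. None was lower, a call that 24.6% of all genes received. Both MYC-PyMT libraries stood above both Control-PyMT libraries for all 59 genes, a pattern seen in 37.0% of all genes (groups that do not overlap, in either direction, made up 75.7%). A log2 change of at least 1 was found for 53 of the 59 genes and for 15.7% of all genes, and a log2 change of at least 2 for 10 of them and for 2.83% of all. Of the 59, 48 had an adjusted p under 0.001 in limma, but the share of all genes at that cut is not given here. In bulk tissue, more cells of a type and more RNA per cell cannot be told apart.

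**Figure D1:**
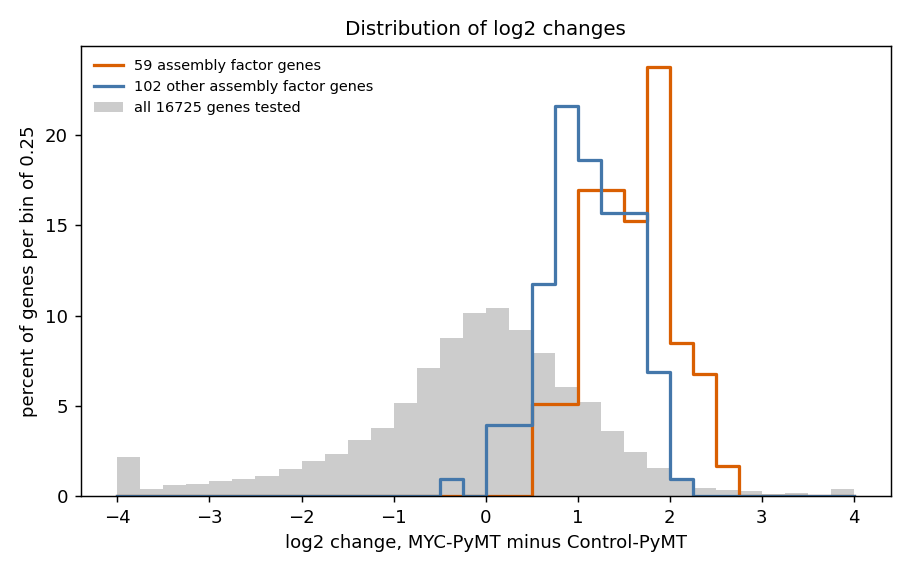
Percent of genes (y axis) in each bin of 0.25 of the log2 change, MYC-PyMT minus Control-PyMT (x axis), for all 16725 genes tested (grey bars), the 59 assembly factor genes (orange) and 102 other assembly factor genes (blue), where the outermost bins also hold values beyond -4 and 4. The smallest log2 change of the 59 genes was 0.55, above the median of -0.02 over all genes.

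The promoters of 3 genes are shown because the set moved together and these promoters hold CACGTG, the canonical E-box that MYC and its partner MAX are known to bind. The motif reads the same on both strands. Sequences are from RefSeq (GRCm38.p6), 5′ to 3′ on the gene's strand, with the motif in capitals. Utp18 and Nop2 are shown for the 250 bases before the start of transcription (chr11:93885767-93886016, minus strand, and chr6:125131633-125131882, plus strand). Wdr43 is shown to the end of its motif, 23 bases past the start (chr17:71615965-71616237, plus strand).
Utp18: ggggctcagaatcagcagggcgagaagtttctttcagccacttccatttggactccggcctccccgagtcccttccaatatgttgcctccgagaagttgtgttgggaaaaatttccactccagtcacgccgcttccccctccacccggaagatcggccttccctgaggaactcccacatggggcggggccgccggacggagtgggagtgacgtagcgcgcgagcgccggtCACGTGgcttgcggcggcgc
Wdr43: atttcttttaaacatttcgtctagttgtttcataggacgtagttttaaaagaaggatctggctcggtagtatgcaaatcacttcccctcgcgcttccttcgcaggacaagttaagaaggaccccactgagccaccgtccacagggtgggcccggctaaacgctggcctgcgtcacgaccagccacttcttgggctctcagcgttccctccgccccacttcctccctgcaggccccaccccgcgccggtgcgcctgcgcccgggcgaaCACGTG
Nop2: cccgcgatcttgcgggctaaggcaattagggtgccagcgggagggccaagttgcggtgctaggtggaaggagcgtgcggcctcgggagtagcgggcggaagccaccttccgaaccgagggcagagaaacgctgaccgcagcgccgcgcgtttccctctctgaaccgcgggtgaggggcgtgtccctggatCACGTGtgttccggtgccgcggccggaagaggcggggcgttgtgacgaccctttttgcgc
The motif began 20 bases before the start in Utp18, 60 bases before it in Nop2 and at base 18 after it in Wdr43. Windows from 250 bases before to 50 after the start were at hand for 50 of the 59 genes, and 11 of these held the motif, 22.0%. The share was 11.1% of genes tested, 14.4% of tested genes called higher and 8.09% of all 27025 genes with a window. The motif lay before the start in 4 of these 11 genes and after it in 7. The 11 genes with the motif had a median log2 change of 1.33 (0.55 to 1.96), and the 39 without it a median of 1.64 (0.77 to 2.49). None of the 6 box C/D and H/ACA genes with a window held it. A match describes these letters in this window and not a bound site.

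The 3 box C/D snoRNP genes rose by 1.77 to 2.49 on the log2 scale. Nop56, a core scaffold of the particle (chromosome 2, 130274430 to 130279313, in GRCm38 as are all gene positions here), measured 3476 and 2902 scaled counts (Control-PyMT replicates 1 and 2, the order kept below) against 16468 and 19285 (MYC-PyMT). The lowest MYC-PyMT library was thus far above the highest Control-PyMT library, giving a log2 change of 2.49 (SE 0.19, limma adjusted p = 1.71e-05). Nop58, the partner scaffold that sits opposite Nop56 (chromosome 1, 59684971 to 59719044), had 4926 and 3544 against 13317 and 15153, a change of 1.77 (SE 0.21). Fbl, the methyltransferase fibrillarin (chromosome 7, 28169710 to 28179269), had 1499 and 1413 against 4808 and 5643, a change of 1.84 (SE 0.18). Per kilobase of transcript, the level of Nop56 was 0.644 and 0.747 times that of Nop58 in Control-PyMT and 1.13 and 1.16 times it in MYC-PyMT, so the order of both scaffolds turned. The ratio of Nop56 to Fbl, also per kilobase, went from 1.48 and 1.31 to 2.18 and 2.18. An exact permutation test of 2 against 2 libraries cannot give a p under 0.333, so these ratios are given without a test.

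The 4 box H/ACA snoRNP genes rose by 1.67 to 2.27. Nhp2, an RNA-binding core protein (chromosome 11, 51619735 to 51623714), stood at 2756 and 2137 scaled counts in the Control-PyMT libraries, against 9914 and 13788 in those of MYC-PyMT. The MYC-PyMT libraries differed 1.39-fold for Nhp2, more than for any other of the 59 genes. Its log2 change was 2.27 (SE 0.22, limma adjusted p = 5.47e-05). Gar1, a core protein that binds the catalytic subunit, had 934 and 987 against 3918 and 4231, a change of 2.08 (SE 0.18). Dkc1, the pseudouridine synthase dyskerin (chromosome X), had 3044 and 2258 against 9969 and 10221, a change of 1.94 (SE 0.20). Nop10, the smallest protein of the particle, had 2485 and 1942 against 6829 and 7165, a change of 1.67 (SE 0.19). In each of these 4 genes both MYC-PyMT libraries lay above both Control-PyMT libraries, a pattern seen in 37.0% of all genes tested. The level of Nhp2 per kilobase was 1.18 and 1.17 times that of Nop10 in Control-PyMT and 1.55 and 2.05 times it in MYC-PyMT.

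**Figure D2:**
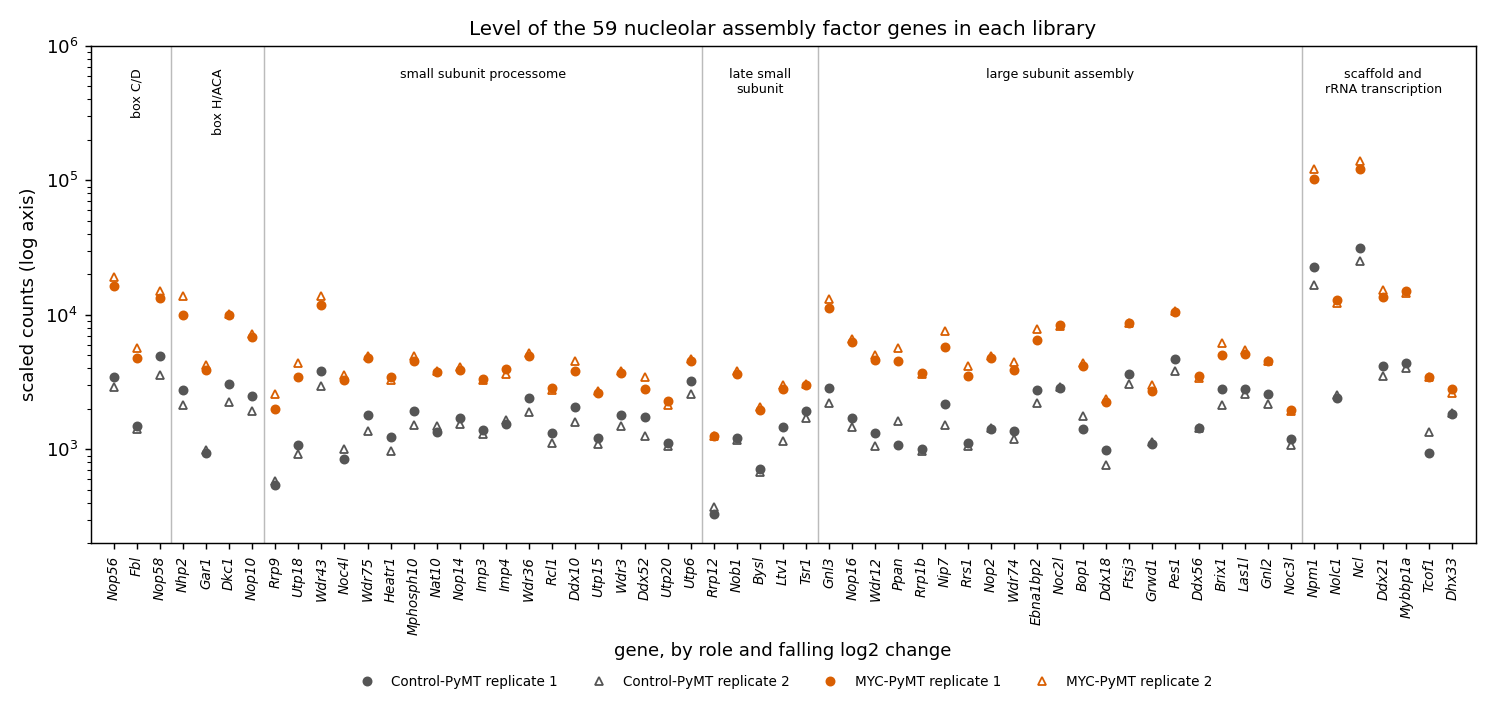
Level of each of the 59 genes (x axis, grouped by role and ordered by falling log2 change) in scaled counts on a log axis (y axis), with Control-PyMT in grey, MYC-PyMT in orange, replicate 1 as filled circles and replicate 2 as open triangles. For every gene both orange points lie above both grey points, from Rrp12, with at least 354 reads per library, to Ncl, which reached 138470.3 scaled counts in MYC-PyMT.

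The 19 genes of the small subunit processome all rose, by 0.67 to 2.00 with a median of 1.28. Rrp9, a protein specific to the U3 snoRNP that base-pairs with the rRNA precursor (chromosome 9, 106475963 to 106485424), stood at 546 and 585 scaled counts in the Control-PyMT libraries, against 2003 and 2576 in those of MYC-PyMT. Its change was 2.00 (SE 0.21, limma adjusted p = 7.15e-05), the largest of this role. Utp18 had 1087 and 923 against 3479 and 4379 (log2 1.96, SE 0.20). Utp18 and Wdr43 are WD-repeat proteins of the processome's early subcomplexes. Wdr43, also known as Utp5, had 3821 and 2963 against 11926 and 13814 (log2 1.93, SE 0.20). Noc4l, a partner of Nop14, had 845 and 1007 against 3266 and 3577 (log2 1.89, SE 0.19). Nop14 itself changed by 1.29. The U3 partners Imp3, Imp4 and Mphosph10, which form one complex, changed by 1.28, 1.25 and 1.47. The scaffold genes Heatr1, Wdr75 and Wdr3 changed by 1.62, 1.64 and 1.19, the acetyltransferase gene Nat10 by 1.42 and the helicase genes Ddx10 and Ddx52 by 1.21 and 1.08. Utp15, Utp20, Wdr36 and Rcl1, the remaining processome genes, changed by 1.20, 1.02, 1.24 and 1.21.

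Utp6 changed least in this role. It stood at 3251 and 2599.9 scaled counts in the Control-PyMT libraries, against 4553 and 4671 in those of MYC-PyMT, a log2 change of 0.67 (SE 0.19, limma adjusted p = 0.0160). The lowest MYC-PyMT library was 1.40 times the highest Control-PyMT library, the narrowest gap among the 59 genes. The call was lost when Control-PyMT replicate 2 was left out (log2 0.50, adjusted p = 0.0614 by limma), and also without MYC-PyMT replicate 1 (0.68, 0.0794) and without MYC-PyMT replicate 2 (0.65, 0.106). Without limma's variance trend its adjusted p was 0.0609.

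The 5 late small subunit genes, whose products act on particles leaving the nucleolus, rose by 0.75 to 1.84. Rrp12, an export factor, had 331 and 370.3 scaled counts in Control-PyMT. It had 1255 in each MYC-PyMT library, a change of 1.84 (SE 0.21, limma adjusted p = 0.000112). Nob1, the nuclease that makes the final cut in the small subunit rRNA, had 1220.4 and 1177 against 3609.8 and 3844 (log2 1.64, SE 0.18). Bysl, or bystin, had 717 and 682 against 1960.4 and 2062 (log2 1.52, SE 0.19). Ltv1, an assembly factor released late, had 1478 and 1147 against 2791 and 3003 (log2 1.15, SE 0.20). Tsr1, a GTPase-like factor, had 1942 and 1699.6 against 3019 and 3076 (log2 0.75, SE 0.18, limma adjusted p = 0.00777). Both MYC-PyMT libraries lay above both Control-PyMT libraries in all 5, as they did in 37.0% of all genes tested. The call for Tsr1 ended without MYC-PyMT replicate 2 (log2 0.73, limma adjusted p = 0.0634).

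All 21 large subunit genes rose, by 0.77 to 2.27 with a median of 1.53. Gnl3, the nucleolar GTPase nucleostemin (chromosome 14, 31012433 to 31019152), stood at 2862 and 2203 scaled counts in the Control-PyMT libraries, against 11189.8 and 13133 in those of MYC-PyMT, a change of 2.27 (SE 0.20, limma adjusted p = 3.34e-05). Nop16 had 1702 and 1467 against 6320.0 and 6569 (log2 2.03, SE 0.18). Ppan, which joins early large subunit particles, had 1075 and 1616 against 4514 and 5675 (log2 1.94, SE 0.23). The 2 Control-PyMT libraries differed 1.504-fold for Ppan, more than for any other of the 59 genes, and still lay below both MYC-PyMT libraries. Nip7 changed by 1.86, Rrs1, which helps bring 5S rRNA into the particle, by 1.81, Nop2, an rRNA methyltransferase, by 1.77 and Wdr74 by 1.72. Ebna1bp2, Brix1, Ftsj3 and Grwd1 changed by 1.54, 1.18, 1.39 and 1.37, and the helicase genes Ddx18 and Ddx56 by 1.40 and 1.25.

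The PeBoW complex, made of Pes1, Bop1 and Wdr12, is needed for processing of the large subunit rRNA. Pes1 stood at 4735 and 3794 scaled counts in the Control-PyMT libraries, against 10509 and 10764 in those of MYC-PyMT (log2 1.33, SE 0.19). Bop1 had 1429 and 1771 against 4149 and 4351 (log2 1.42, SE 0.19). Wdr12 had 1333 and 1062 against 4603 and 5043 (log2 2.02, SE 0.19, limma adjusted p = 5.08e-05). The 3 subunit genes thus rose together, by unequal amounts. The per-kilobase ratio of Wdr12 to Pes1 went from 0.0818 and 0.0814 in Control-PyMT to 0.127 and 0.136 in MYC-PyMT. The ratio of Pes1 to Bop1 was 2.84 and 1.83 against 2.17 and 2.12, so the groups overlapped for that pair.

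The smallest large subunit changes were those of Noc3l, Gnl2 and Las1l. Noc3l stood at 1203 and 1081 scaled counts in the Control-PyMT libraries, against 1954 and 1924 in those of MYC-PyMT (log2 0.77, SE 0.19, limma adjusted p = 0.00758). Its call ended without MYC-PyMT replicate 1 (log2 0.75, adjusted p = 0.0559 by limma) and without MYC-PyMT replicate 2 (0.78, 0.0520). Noc2l, which pairs with it, changed by 1.53. Gnl2 and Las1l changed by 0.94 and 0.98.

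The 7 genes of the nucleolar scaffold and of rRNA transcription held both the largest and the smallest change of the set. Npm1, or nucleophosmin, which gives the outer nucleolus its liquid-like structure (chromosome 11, 33152287 to 33163206), stood at 22863 and 16596 scaled counts in the Control-PyMT libraries, against 103026 and 120748 in those of MYC-PyMT. Its log2 change was 2.52 (SE 0.24, limma adjusted p = 5.09e-05), a 5.67-fold ratio of means. Nolc1, a chaperone of snoRNPs (chromosome 19, 46075863 to 46085530), had 2398 and 2541 against 12869 and 12157 (log2 2.34, SE 0.18). The lowest MYC-PyMT library was 4.78 times the highest Control-PyMT library for Nolc1, the widest gap of the 59 genes, where the median gap was 2.66 times. Ncl, or nucleolin, a histone and rRNA chaperone (chromosome 1, 86344719 to 86359400), had 31317 and 25117 against 122459.8 and 138470.3 (log2 2.22, SE 0.24). Ddx21, a helicase that binds rRNA genes and snoRNAs, had 4135 and 3498 against 13588 and 15329 (log2 1.92, SE 0.19). Mybbp1a and Tcof1, which act on transcription by RNA polymerase I, changed by 1.82 and 1.62.

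Dhx33, a helicase tied to rRNA transcription, stood at 1845 and 1870.3 scaled counts in the Control-PyMT libraries, against 2822 and 2634 in those of MYC-PyMT. Its log2 change of 0.55 (SE 0.18, limma adjusted p = 0.0281) was the smallest of the 59. The groups did not overlap, but the call ended under limma without any one of the 4 libraries. The values were 0.54 without Control-PyMT replicate 1 (adjusted p = 0.0577), 0.56 without Control-PyMT replicate 2 (0.0574), 0.50 without MYC-PyMT replicate 1 (0.215) and 0.60 without MYC-PyMT replicate 2 (0.138). With the replicate number as a block, the limma adjusted p for Dhx33 was 0.0543. It was 0.0590 with upper-quartile scaling and 0.0761 without the variance trend of limma.

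**Figure D3:**
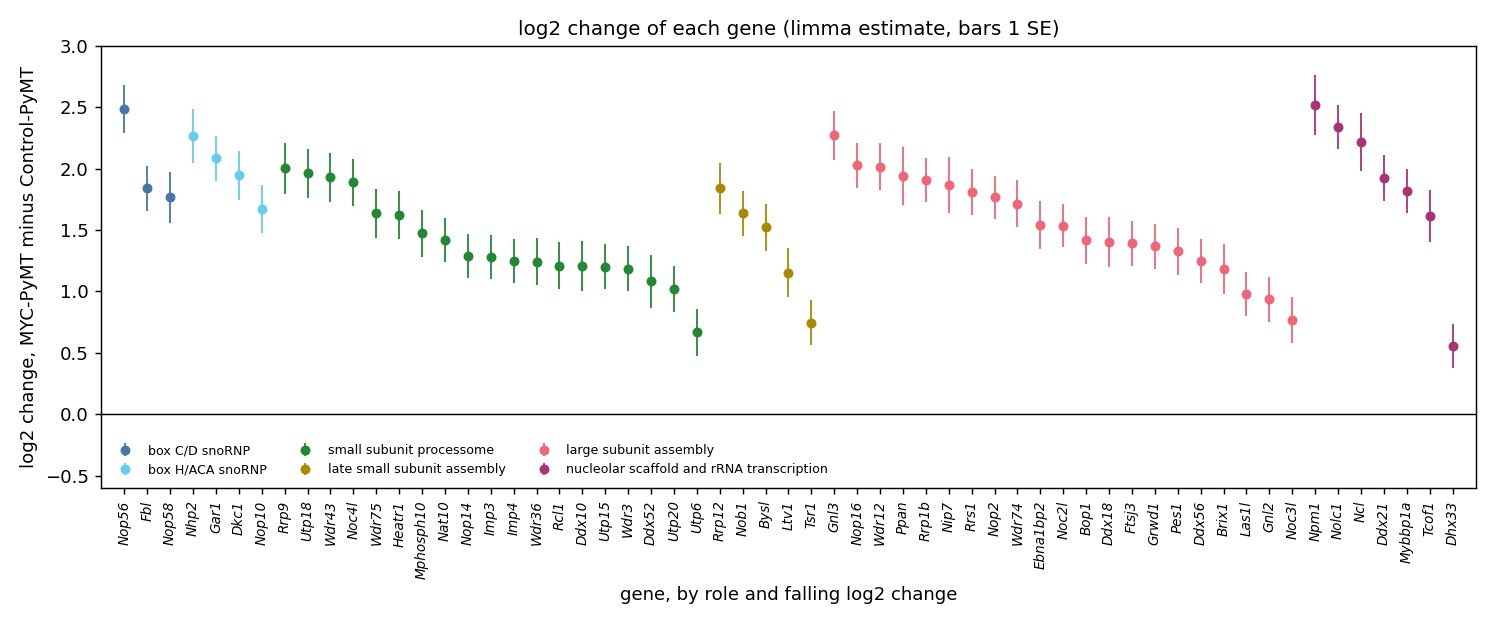
The limma log2 change (y axis, points, with bars of 1 SE) of each of the 59 genes (x axis, colours by role), MYC-PyMT minus Control-PyMT. Points run from 0.55 for Dhx33 to 2.52 for Npm1, and all lie above 0.

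The roles overlapped widely in their changes. The median was 2.01 for box H/ACA, 1.92 for scaffold and transcription, 1.84 for box C/D, 1.53 for large subunit, 1.52 for late small subunit and 1.28 for processome genes. No test was made between roles, since genes of a role are not replicates. Against the ranking of all 16725 changes, 42 of the 59 genes lay in the highest 10%, and Dhx33 was lowest at percentile 72.0.

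Levels spanned a wide range, and their order changed little. Per kilobase of transcript, Npm1 was highest with 12082 scaled counts in the Control-PyMT mean and 68516 in the MYC-PyMT mean. Ncl followed with 3440.2 and 15906.5, and Rrp12 was lowest in Control-PyMT with 80.8 (289 in MYC-PyMT). Spearman's correlation between the mean levels per kilobase of both groups was 0.93 over the 59 genes, which share the same 4 libraries. Together the 59 genes took 0.555% and 0.502% of reads in Control-PyMT replicates 1 and 2, with exact 95% binomial intervals of 0.552% to 0.557% and 0.50002% to 0.505%. They took 1.57% (1.56% to 1.57%) and 1.72% (1.71% to 1.72%) in MYC-PyMT replicates 1 and 2. Without Npm1 and Ncl, the other 57 genes took 0.375% and 0.353% against 0.911% and 0.976%. The intervals hold for counting error alone, because reads made by PCR were not marked by molecule.

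**Figure D4:**
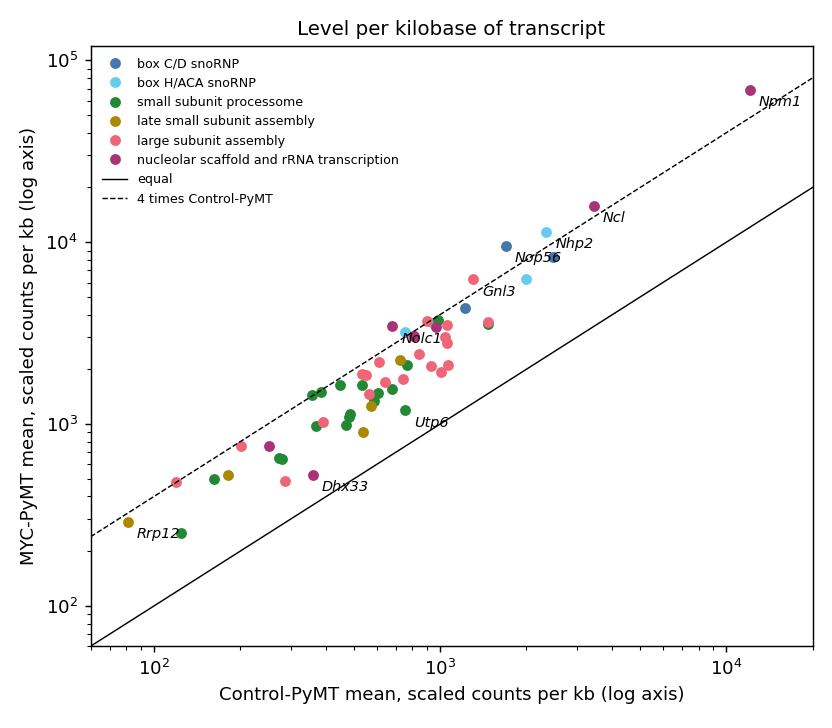
Mean level per kilobase of transcript in Control-PyMT (x axis) and MYC-PyMT (y axis), both in scaled counts per kilobase on log axes, for the 59 genes coloured by role, with lines for equal levels and for 4 times the Control-PyMT level. All points lie above the line of equality, and Npm1, at 12082 and 68516, is the farthest to the upper right.

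Close relatives of 4 members were measured too, and they did not all move with them. Gnl3l, the paralog of Gnl3, stood at 3184 and 2385 scaled counts in the Control-PyMT libraries, against 2717 and 3066 in those of MYC-PyMT, so the groups overlapped (log2 0.067, SE 0.20, limma adjusted p = 0.810). Its sign turned under upper-quartile scaling (-0.049). Ddx50 lies next to Ddx21 on chromosome 10 (62615895 to 62651218, against 62580251 to 62602281 for Ddx21, both on the minus strand). It had 3820.3 and 3086 against 3492 and 3731 (log2 0.072, SE 0.19, limma adjusted p = 0.777; -0.043 under upper-quartile scaling). Rrp1, the paralog of Rrp1b, had 5551 and 5195 against 6623 and 7044 (log2 0.35, SE 0.18, limma adjusted p = 0.134), where Rrp1b had 998 and 973 against 3726 and 3654 (log2 1.90, SE 0.18). Npm3, a histone chaperone related to Npm1, had 2267 and 1926 against 9154 and 10169.6 and rose by 2.21 (SE 0.19). Npm2, known from the egg, had 13.1 and 18.7 against 18.1 and 22.0 (log2 0.33, SE 0.45), which did not pass.

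Ratios within a library do not depend on its scaling. The per-kilobase ratio of Gnl3 to Gnl3l was 2.25 and 2.31 in Control-PyMT, against 10.3 and 10.7 for MYC-PyMT. That of Ddx21 to Ddx50 was 0.581 and 0.609 against 2.09 and 2.21. Per kilobase, Ddx21 was thus the weaker of both neighbours in Control-PyMT and the stronger in MYC-PyMT. In scaled counts Ddx21 was already the higher in Control-PyMT, at 4135 and 3498 against 3820.3 and 3086 for Ddx50. Their order in Control-PyMT therefore depends on the transcript lengths used, 4722 bases for Ddx21 and 2535 for Ddx50. That of Rrp1b to Rrp1 was 0.0732 and 0.0762 against 0.229 and 0.211. For these 3 pairs the log2 changes differed by 2.20, 1.85 and 1.56. For Npm1 and Npm3 the changes differed by 0.31, and the ratio was 5.48 and 4.68 against 6.12 and 6.46. With 2 libraries a group these differences have no exact test that could pass.

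**Figure D5:**
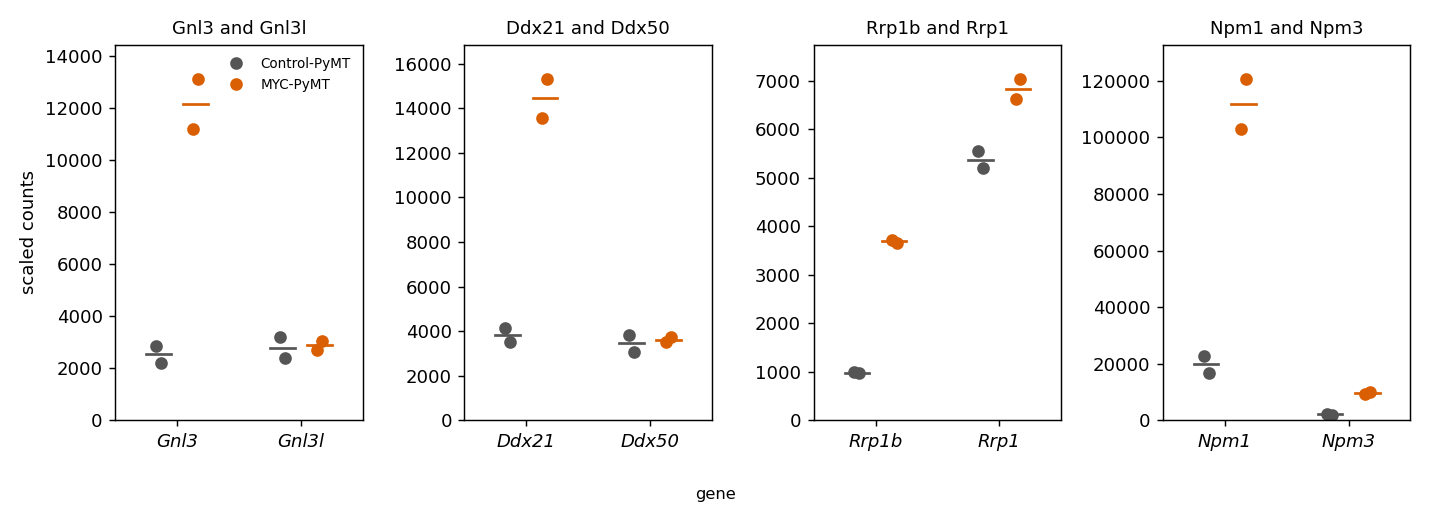
Scaled counts (y axis, each panel with its own scale from 0) of 4 members and a paralog of each (x axis), with Control-PyMT libraries in grey, MYC-PyMT libraries in orange and short lines for the mean of 2 libraries. Gnl3, Ddx21 and Rrp1b are far higher in MYC-PyMT, Gnl3l and Ddx50 overlap between groups, and Npm1 and Npm3 are both higher in MYC-PyMT.

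A further 102 ribosome assembly factors outside the set were measured, and 93 of them rose, none fell and 9 did not pass (median log2 change 1.12, limma). By role, 30 of 33 small subunit factors and 37 of 40 large subunit factors rose. So did 15 of 18 exosome and trimming factors, and 11 of 11 factors that assemble or move snoRNPs. Among all genes tested, 23.3% were called higher and 24.6% lower. Naf1, which loads dyskerin onto H/ACA RNAs, stood at 406 and 367 scaled counts in the Control-PyMT libraries, against 1436 and 1761 in those of MYC-PyMT (log2 2.04, SE 0.21). Nle1, a partner of the large subunit remodeller Mdn1, had 466 and 606 against 1921 and 2280.3 (log2 1.98, SE 0.22). Xrn1, the cytoplasmic 5′ to 3′ exonuclease, had 2517 and 2263 against 1895 and 1654 (log2 -0.43, SE 0.19, limma adjusted p = 0.0828). It was the one factor of these lists with a negative change.

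Several members carry snoRNA genes inside them, from which guide RNAs are cut out of introns. The GENCODE M21 annotation places 23 snoRNA genes inside 8 of the 59 genes on the same strand. Nop56 holds 5, Nop58 holds 4, and Gnl3, Ncl and Wdr43 hold 3 each. The 8 host genes had a median log2 change of 1.94 and the other 51 a median of 1.52, given without a test. Tsr1, with 2 snoRNA genes, had the smallest change of the hosts, at 0.75. The snoRNAs themselves were not analysed here.

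Proliferation markers moved with the assembly factors. All 12 rose, with a median log2 change of 1.56, and their summed level was 30863 and 26247 scaled counts in Control-PyMT, against 78298 and 76738 for MYC-PyMT. Of 10 epithelial markers 3 fell and 7 did not pass. For these and the other marker counts, the shares of all tested genes were 23.3% called higher and 24.6% called lower. Of 8 basal and myoepithelial markers 5 fell and 1 rose, and their sum went from 41416 and 40899 to 11423 and 25329.6. Among 12 markers of T and NK cells 8 fell, 1, Cd4, rose and 2 were not tested. The list summed to 675 and 747 against 271 and 309.9. Cd4 (130 and 141) and Lck (94.6 and 131), which did not pass, made up most of the MYC-PyMT sums. Of 12 neutrophil markers 6 rose, 1, Ltf, fell and 1 was not tested. Of those that rose, Retnlg, Ngp and Camp had at most 8 reads in each Control-PyMT library. S100a8, the gene that drives Cre, had 2338 and 639 against 1564 and 2524, so the groups overlapped and it did not pass. All 12 neutrophil markers summed to 35044 and 21924 against 11257 and 11867.5. Without Ltf, which mammary epithelium also makes and which was set aside after its values were seen, they summed to 3509 and 1374 against 3992 and 5849.7. Macrophage markers summed to 18025 and 21114 against 17050 and 19905, fibroblast markers to 15791 and 25322 against 18386 and 24265, and endothelial markers to 2939 and 3843 against 4895 and 6123. Elane was at 0 in Control-PyMT replicate 1, Camp in Control-PyMT replicate 2 and Ncr1 in MYC-PyMT replicate 2, and no other marker was at 0 in any library. The part of cell makeup or cell division in the changes of the assembly factors was not tested.

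Length and gene overlap touch some values. Spearman's correlation of the log2 change with transcript length was -0.26 over the 59 genes and -0.23 over all genes with a known length. With each library's length trend removed, all 59 genes were still called higher, with a median of 1.56. Near-identical processed pseudogenes (at least 95% identity over 300 bases) were found for 8 of the 59 genes. Gm14681, a copy of Npm1, stood at 219.8 and 178 scaled counts in the Control-PyMT libraries, against 987 and 1070.4 in those of MYC-PyMT, and Gm16433, a copy of Ddx18, had 27.1 and 16.99 against 53.3 and 45.1. Reads of Npm1, Ddx18, Nop56, Fbl, Imp3, Ddx21, Pes1 and Wdr12 may be split with such copies, so their values are uncertain to that extent. Exons of 18 genes overlap a measured gene on the opposite strand, 4 of them by 300 bases or more: Wdr3 with Spag17, Tsr1 with Srr, Noc2l with Samd11 and Bysl with Ccnd3. The library kit keeps strand, but the strand setting of the counting was not stated. Srr had 1156 and 978 against 480.04 and 484, lower where Tsr1 was higher. Spag17 was also called lower, with a log2 change of -2.55. Ccnd3 was called higher, as Bysl was, with 1227.9 and 1558.6 against 2100.3 and 1980.3 (log2 0.56). Samd11 was called higher too, as Noc2l was (log2 1.33), but had at most 27.2 scaled counts in a library. Whether reads of such partners add to the values of the assembly factor genes was not tested.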

How the data were processed

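RNA-seq libraries from 4 mammary tumour samples were compared, 2 a group. They were poly(A)-selected with a stranded TruSeq kit, per the labels' protocols. Per the submitters' processing notes, HISAT2 and DESeq2 were used with mm10 (GRCm38.p5). The tool that counted reads, whether it used strand, and its gene models: not given in the sources used here. The values the authors deposited are a signal, scaled counts not divided by gene length. All values in every column were whole multiples of 1 step within 0.001 reads (100% of values), so whole reads were recovered.

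The test was limma 3.58.1 (R 4.3.3, variance trend) on log2(value + 1) for genes with at least 10 scaled counts in at least 2 libraries, two-sided, with Benjamini-Hochberg adjustment over 16725 genes and a threshold of 0.05. Fold changes on this scale understate those of low genes. edgeR 4.0.16 and DESeq2 1.42.0 on recovered reads, which called 7925 and 7293 genes against 8010 by limma, were alternatives, beside other pseudocounts, filters, scalings and left-out libraries. The procedure was also run on simulated data, in which far fewer genes changed than were called here. That run therefore does not cover a setting like this one, and its outcome is not given here. Levels per kilobase used the longest transcript tagged principal in GENCODE M21 (GRCm38), the source of gene coordinates, which listed 20463 of the gene IDs. Genes without that tag used the longest basic transcript, or else the longest of any. Per-kilobase levels and ratios between genes depend on this choice, which gave 10012 bases for Wdr12, 8202 for Ncl and 5836 for Imp4. Copies were searched with blastn 2.17.0.

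The 59 genes and all lists were chosen with earlier results of these data known. All members may be named. Values by library are given for the snoRNP and PeBoW genes, for the 4 largest changes and the smallest of each other role, for the 3 largest and 3 smallest changes over the joined lists of other factors and paralogs (Npm3, Naf1 and Nle1, and Xrn1, Gnl3l and Ddx50), and for all paralogs. Promoters follow falling log2 change among genes with the motif. Mybbp1a, next after Wdr43, was passed over after its motif was seen to lie farther past the start than is printed, and Nop2 was taken instead. Of the listed genes, 6 were not matched and are not used here.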

Additional observations from a re-analysis of the deposited data

How the results depend on the processing

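All 59 genes kept a positive log2 change in all 16 alternatives, but several of these could not turn a sign. The level filters, the dropped variance trend, the replicate block and the looser adjusted p left the log2 changes as they were. Leaving out a library could not turn one either, because both MYC-PyMT libraries lay above both Control-PyMT libraries for all 59 genes. All 59 were called higher with pseudocounts of 0.5 and 5, and without a level filter or with one of 50. The same held with TMM scaling, with the length trend removed, and by edgeR and DESeq2. At an adjusted p under 0.10 it followed from passing at 0.05. The count was 58 with upper-quartile scaling, 57 without the variance trend, and 55 to 58 with a library left out. Dhx33, Utp6, Noc3l and Tsr1 were the genes whose calls ended. The median log2 change of the 59 genes, 1.62, was 1.501 with upper-quartile scaling, which moved the median of all genes to -0.13, and 1.502 to 1.65 with a library left out. The count of all changed genes, 8010, was 5236 to 6480 with a library left out, lowest without Control-PyMT replicate 2. Other assembly factors called higher numbered 93, and 72 to 87 with a library left out. Xrn1 was called lower with upper-quartile scaling (-0.55), as 1 factor, and at an adjusted p under 0.10, again as 1 factor. Signs turned for paralogs that had not passed: Ddx50 (-0.043 with upper-quartile scaling, -0.082 without Control-PyMT replicate 2, the lowest of -0.082 to 0.23 with a library left out), Gnl3l (-0.049 with upper-quartile scaling, -0.14 without Control-PyMT replicate 2 and -0.020 without MYC-PyMT replicate 2, in a range of -0.14 to 0.28) and Npm2 (-0.076 with the length trend removed). The cause was not tested. With a replicate block, 58 of the 59 genes and 8039 genes in all were called. The numbers gave no sign of pairing: replicate differences of both groups correlated at -0.089 across genes. With 2 libraries a group, depth limits the values less than the number of libraries does.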
